A study of Mus musculus with 18 samples.

Results

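Revival stem cells are rare epithelial cells of the injured gut that are marked by clusterin and can rebuild the crypt after the Lgr5+ stem cells are lost. The transcriptional co-activator YAP drives this regenerative program: when Hippo kinase signalling is low, YAP and TAZ enter the nucleus, bind TEAD factors and induce genes such as Ccn1, Ccn2, Ajuba and F3. The regenerating epithelium also takes on genes of the fetal gut, of which Ly6a (Sca-1) is the best known. The 8 genes described here are Clu, Ccn1, Ccn2, Ajuba, Msln, Il1rn, Ly6a and F3. They were picked by symbol as regeneration and YAP-linked genes of injured gut epithelium, out of 18838 genes that had a row in at least 1 of the 3 expression tables.

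The RNA came from duodenal crypts of 3 WT (Mtgr1+/+) and 3 Mtgr1-/- mice (8 to 12 weeks old, male and female age-matched littermates). Part of each crypt isolate was lysed at once. The rest was plated in Matrigel under ENR medium, which carries EGF, noggin and R-spondin, and was collected as enteroids at 24 hours (day 1) and 72 hours (day 3). Each of the 6 mice therefore gave 3 libraries, 18 in all, of poly(A)-selected RNA. The Mtgr1 deletion is constitutive and global, so that stroma and immune cells of the isolates carried it too. MTGR1 is a transcriptional co-repressor, and its gene is listed as Cbfa2t2.

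The libraries held between 22035316 and 29661084 reads assigned to genes. Cbfa2t2 was not called different between the genotypes at any time point. WT crypts held 614, 523 and 595 normalized counts of it, against 697, 466 and 534 for crypts labelled Mtgr1-/- (log2 fold change -0.047, limma adjusted p = 0.917). At day 1 it stood at 788.3, 710 and 757 in WT and higher, at 1160, 1008 and 788.6, in enteroids labelled Mtgr1-/- (0.37, limma adjusted p = 0.0557). At day 3 the limma adjusted p was 0.686. The sources used here do not say which exons the allele lacks, and a count over the whole gene does not test that. Genotype is therefore given as labelled, and every direction below rests on the labels. The 6 epithelial markers (Epcam, Cdh1, Krt8, Krt18, Krt20 and Vil1) summed to between 4849 and 10926 CPM (counts scaled to a library total of 1000000) in every library, while the fibroblast and endothelial lists stayed low. WT crypt library 3 stood apart: its 5 immune markers (Ptprc, Cd3e, Adgre1, Itgam and Cd79a) summed to 219.7 CPM, against 37.7 to 41.4 CPM in the other WT crypt libraries and 22.6 to 30.4 CPM in crypts labelled Mtgr1-/-. Its fibroblast and muscle markers summed to 21.4 CPM, against 5.58 and 4.90 CPM in the other WT crypt libraries. Its endothelial markers summed to 8.61 CPM, against 1.03 and 1.32 CPM there. This library also had the highest WT crypt value of all 7 genes with crypt values. The part of RNA from such cells in those values was not tested. The 5 crypt base stem cell markers (Lgr5, Ascl2, Olfm4, Smoc2 and Axin2) summed to 1019 to 4183 CPM in the 9 WT libraries and 24.2 to 217 CPM in the 9 libraries labelled Mtgr1-/-. All 5 were called lower at day 1 and at day 3 in the latter, beside 28.9% and 29.1% of all genes tested. In crypts only Olfm4 was called lower, beside 3.15% of all genes tested, and the other 4 overlapped between the genotypes. Bulk libraries cannot tell fewer cells of a type from less RNA per cell.

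The genes lie on 6 chromosomes of GRCm38 and are all protein-coding in GENCODE M21. The secreted and surface proteins are clusterin (Clu, ENSMUSG00000022037.15, chr14:65968483-65981547), an extracellular chaperone; mesothelin (Msln, ENSMUSG00000063011.7, chr17:25748613-25754378), a GPI-anchored glycoprotein; Ly6a (ENSMUSG00000075602.10, chr15:74994877-74998031), a small GPI-anchored antigen; the interleukin-1 receptor antagonist (Il1rn, ENSMUSG00000026981.15, chr2:24336853-24351494); and tissue factor (F3, ENSMUSG00000028128.13, chr3:121723537-121735048), the receptor that starts coagulation. Ccn1 (ENSMUSG00000028195.4, chr3:145646976-145649981) and Ccn2 (ENSMUSG00000019997.11, chr10:24595442-24598683) encode the matricellular proteins CYR61 and CTGF. Ajuba (ENSMUSG00000022178.11, chr14:54567472-54577558) encodes a LIM-domain scaffold that binds and restrains the LATS kinases. The Ccn2 exons share 665 bases with the exons of Gm15270 on the opposite strand. Of the 50-base words in Ly6a transcripts, 19.0% also occur in Ly6c1, Ly6c2, Ly6i or I830127L07Rik, against at most 2.88% for any of the other 7 genes.

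RefSeq promoter sequence on GRCm38.p6 was on hand for 4 of the 8 genes. The 250 bases before the start are shown for those 4. Ccn1, Ajuba and F3 are named above as genes that YAP and TAZ induce, and Il1rn is not. The words searched were the TEAD core GGAATG on both strands and the AP-1 word TGANTCA, and both are in capitals. Each sequence is written 5′ to 3′ on the gene's strand.
Ccn1 (chr3:145649986-145650235, minus strand): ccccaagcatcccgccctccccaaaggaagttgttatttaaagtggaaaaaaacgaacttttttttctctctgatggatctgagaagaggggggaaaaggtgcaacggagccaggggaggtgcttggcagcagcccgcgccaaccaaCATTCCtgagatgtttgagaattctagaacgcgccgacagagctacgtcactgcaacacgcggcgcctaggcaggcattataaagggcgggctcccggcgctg
Ajuba (chr14:54577662-54577911, minus strand): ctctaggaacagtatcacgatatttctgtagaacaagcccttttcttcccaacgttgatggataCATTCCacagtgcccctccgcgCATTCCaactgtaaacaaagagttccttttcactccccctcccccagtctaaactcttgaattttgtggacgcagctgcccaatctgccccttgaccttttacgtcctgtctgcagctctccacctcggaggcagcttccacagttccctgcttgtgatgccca
F3 (chr3:121723287-121723536, plus strand): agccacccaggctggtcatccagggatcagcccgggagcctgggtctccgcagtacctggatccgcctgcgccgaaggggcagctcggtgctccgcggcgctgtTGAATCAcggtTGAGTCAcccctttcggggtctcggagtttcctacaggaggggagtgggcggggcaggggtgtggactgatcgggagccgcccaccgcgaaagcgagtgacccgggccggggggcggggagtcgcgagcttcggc
Il1rn, first start (chr2:24336610-24336859, plus strand): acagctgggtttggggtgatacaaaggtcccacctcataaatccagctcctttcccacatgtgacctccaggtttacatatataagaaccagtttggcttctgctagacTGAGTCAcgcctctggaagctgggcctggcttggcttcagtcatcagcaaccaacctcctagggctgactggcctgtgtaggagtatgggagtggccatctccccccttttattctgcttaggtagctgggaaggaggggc
Ccn1 held the TEAD word once, 103 bases before its start, and Ajuba held it at 186 and 164 bases before. F3 held the AP-1 word at 146 and 135 bases before its start, and Il1rn at 141 bases before the first of its 3 annotated starts. A further Il1rn start had the TEAD word 24 bases before it, and the remaining one had neither. Among 32851 windows of this length, 12.6% held the TEAD word and 6.75% the AP-1 word, so a match describes these letters and not a bound site.

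Freshly isolated crypts held little of the 7 genes with crypt values, at either genotype. Together these made up 11.4 to 19.0 CPM in WT crypts and 20.45 to 29.19 CPM in crypts labelled Mtgr1-/-. Ajuba was the only one of the 6 tested genes to pass the test, and it was higher in the libraries labelled Mtgr1-/-. Across all 12980 genes tested, 1.58% were called higher and 3.15% lower. These calls are from limma on log2(normalized count + 1), with Benjamini-Hochberg adjustment over all genes tested and a threshold of 0.05; fold changes on that scale understate the change of low genes.

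Ajuba had normalized counts of 37.4, 40.6 and 47.2 in WT crypts and 132, 119 and 139 in crypts labelled Mtgr1-/-. The groups did not overlap, and the ratio of means was 3.12 (log2 fold change 1.62 ± 0.21 (SE, n = 3 per group), limma adjusted p = 0.0080). The call was lost when WT crypt library 1 was left out (adjusted p = 0.0551).

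Clu had 21.1, 1.98 and 24.2 normalized counts in WT crypts and 88.5, 138 and 56.9 in crypts labelled Mtgr1-/-. The groups did not overlap here either. The share of all genes apart in this way in crypts was not counted, for Ajuba as for Clu. The WT values of Clu were spread over a 12.2-fold range, and the test was not passed (log2 fold change 2.92 ± 0.85 (SE), limma adjusted p = 0.12). DESeq2 on the recovered reads did call Clu higher (log2 fold change 2.58, adjusted p = 0.0126).

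Il1rn had 8.62, 11.9 and 115 normalized counts in WT crypts against 84.8, 176 and 94.5 in crypts labelled Mtgr1-/-. WT crypt library 3, the library with the most immune marker RNA, fell inside the range of the other genotype. Over all 6 libraries the test was not passed (log2 fold change 2.22 ± 0.92 (SE), limma adjusted p = 0.26), and without WT crypt library 3 it was (3.35, adjusted p = 0.011). The part of immune cell RNA in this value was not tested.

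The remaining crypt values overlapped between the genotypes or were near 0. Ly6a stood at 101, 116 and 158 normalized counts in WT and 156, 66.6 and 156 in crypts labelled Mtgr1-/-, with a log2 fold change of -0.06 ± 0.37 (SE). F3 stood at 96.8, 104 and 115 against 69.7, 158 and 73.2, with a log2 fold change of -0.17 ± 0.34 (SE). Ccn1 stood at 25.9, 14.8 and 28.8 against 28.3, 32.3 and 29.5, with a log2 fold change of 0.41 ± 0.36 (SE). None of these 3 genes passed the test, and the limma adjusted p ran from 0.61 for Ccn1 to 0.96 for Ly6a. Among the relatives that share words with Ly6a, Ly6c2 ran from 0 to 108 normalized counts in WT crypts. In crypts labelled Mtgr1-/- Ly6c2 ran from 0.942 to 3.05. Ly6c1 had at most 8.06 normalized counts in any crypt library. The part of shared reads in the crypt Ly6a values was not tested. Msln, below the filter of a mean of 10, was seen in 1, 0 and 2 reads in the WT libraries and in 6, 5 and 4 reads in those labelled Mtgr1-/-, so it was given no test; a count of 0 allows up to 3 reads. Ccn2 was not analysed in crypts here.

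**Figure D1:**
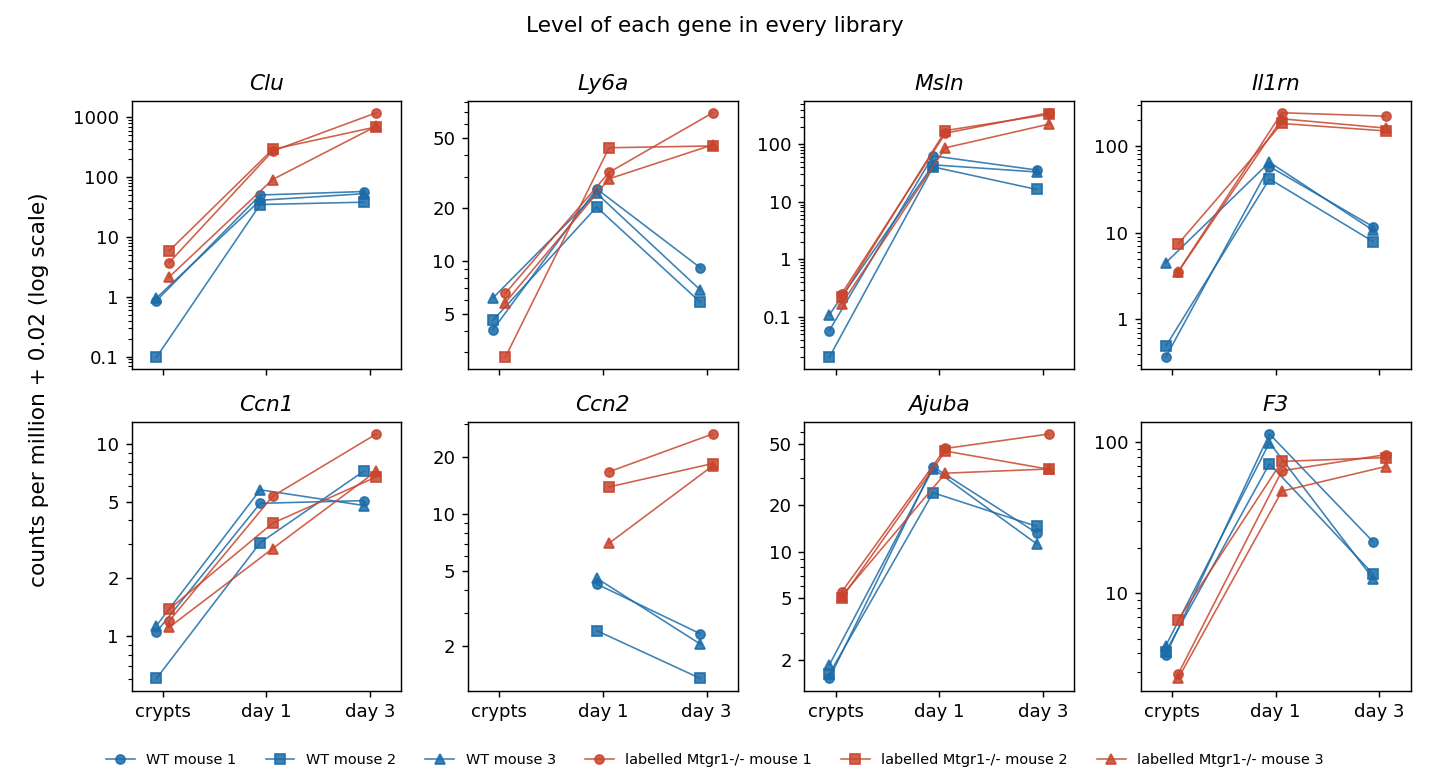
Level of each of the 8 genes (CPM plus 0.02, log scale, a separate axis per gene) in crypts, day 1 and day 3 enteroids, with a line for each of the 3 WT (blue) and 3 labelled Mtgr1-/- (red) mice. From day 1 to day 3 the blue lines of Ly6a, Msln, Il1rn, Ccn2, Ajuba and F3 fall in all 3 mice, while the red lines of Clu, Ly6a, Msln, Ccn1, Ccn2 and F3 rise in all 3.

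After a day in culture all 7 genes with crypt values were higher than in the crypts of the same mouse, in 3 of 3 mice of each genotype, on the CPM scale. Time points were set side by side as CPM of each library's own total, because the 3 tables had been normalized separately, and these changes have no test. The same was true of 52.1% of 11846 genes in WT and of 23.4% in libraries labelled Mtgr1-/-, the median gene standing at 1.17 and 0.903 times its crypt level.

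In WT, mean Clu went from 0.619 to 42.0 CPM, Il1rn from 1.76 to 54.8 CPM, F3 from 4.14 to 95.3 CPM and Ajuba from 1.64 to 31.5 CPM. Msln, at 0 to 0.0892 CPM in WT crypts, stood at 40.6 to 63.0 CPM in day 1 WT enteroids. Ccn1 and Ly6a, which crypts already carried, were 5.0 and 4.77 times their crypt mean. In libraries labelled Mtgr1-/- the ratio of the day 1 to the crypt mean was 3.31 for Ccn1, 6.99 for Ly6a, 7.94 for Ajuba, 15.3 for F3, 43.7 for Il1rn and 56.5 for Clu. The enteroids of both genotypes thus carried far more of these transcripts at day 1 than the tissue they were made from.

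At day 1, 6 of the 8 genes were called higher in enteroids labelled Mtgr1-/- and none was called lower. The median log2 fold change of the 8 was 1.34. Of all 12587 genes tested, 30.0% were called higher and 28.9% lower, with a median of -0.008, so that being called was common at this time point.

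Clu had 1252, 799 and 969 normalized counts in WT and 8487, 7898 and 2840.1 in enteroids labelled Mtgr1-/-. The lowest of the latter, mouse 3, was still above every WT value (ratio of means 6.37, log2 fold change 2.54 ± 0.40 (SE, n = 3 per group), limma adjusted p = 0.0013). Il1rn had 1443, 955 and 1536 in WT and 7539, 4939 and 6416 in the other genotype, the clearest separation of the 8 at this time point (ratio 4.8, log2 fold change 2.27 ± 0.21 (SE), limma adjusted p = 0.00021).

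Msln had 1570.3, 931 and 1041 normalized counts in WT and 4864, 4711 and 2712 in enteroids labelled Mtgr1-/- (ratio 3.47, log2 fold change 1.78 ± 0.27 (SE), limma adjusted p = 0.0011). The mesothelial layer also makes mesothelin. Of the 5 mesothelial markers listed (Upk3b, Wt1, Lrrn4, Upk1b and Bnc1), 3 had a row in the day 1 table, and their sum was 2.45 to 3.82 CPM in WT and 0.936 to 1.4 CPM in enteroids labelled Mtgr1-/-. Upk1b was the one marker of that list called, and it was lower (log2 fold change -2.37), while the mean of Upk3b was 9.14 normalized counts in WT and 19.6 in the other genotype and was not called (limma adjusted p = 0.11). The part of mesothelial RNA in the Msln values was not tested.

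Ccn2 had 106, 55.2 and 108 normalized counts in WT and 522, 378 and 218 in enteroids labelled Mtgr1-/- (ratio 4.15, log2 fold change 2.02 ± 0.37 (SE), limma adjusted p = 0.0026). Its relative Ccn1 showed no such gap, at 122, 69.8 and 136 against 166, 104 and 88.2, with overlapping groups (log2 fold change 0.13 ± 0.32 (SE), limma adjusted p = 0.74). The sign of the Ccn1 value turned when libraries were scaled to their totals (-0.18).

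Ly6a had 639, 463 and 572 normalized counts in WT and 992, 1195 and 912 in enteroids labelled Mtgr1-/- (ratio 1.85, log2 fold change 0.89 ± 0.15 (SE), limma adjusted p = 0.0019). Of the relatives that share its words, Ly6c1 had at most 20.1 normalized counts, Ly6c2 2.84 and Ly6i 2.21 in any day 1 library, and I830127L07Rik was not analysed here. The part of shared reads in the Ly6a values was not tested. Ajuba had 887, 554 and 818 in WT and 1457, 1220.4 and 1007 in enteroids labelled Mtgr1-/-, a smaller gap than in crypts (ratio 1.63, log2 fold change 0.72 ± 0.20 (SE), limma adjusted p = 0.017). The Ajuba call was lost without the first library labelled Mtgr1-/- (adjusted p = 0.0611) and under scaling to library totals (0.40, adjusted p = 0.11).

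F3 was the one gene of the 8 with a lower mean in enteroids labelled Mtgr1-/- at day 1. WT libraries held 2836, 1658 and 2357 normalized counts of it, and the other genotype 2019.8, 2032 and 1481, overlapping between groups (log2 fold change -0.29 ± 0.21 (SE), limma adjusted p = 0.26). Under scaling to library totals it passed as lower (-0.61, adjusted p = 0.033), and likewise without WT library 2 (-0.50, adjusted p = 0.047).

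The mice were not alike. WT mouse 2 had the lowest WT value of all 8 genes at day 1, and mouse 3 labelled Mtgr1-/- had the lowest of its genotype for 7 of the 8. Within a genotype the highest library was 1.31 to 2.99 times the lowest among enteroids labelled Mtgr1-/- and 1.38 to 1.96 times among WT.

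At day 3 all 8 genes were called higher in enteroids labelled Mtgr1-/-. The median log2 fold change of the 8 was 3.37. Of all 12782 genes tested, 29.9% were called higher and 29.1% lower, and the median was 0.003. For 7 of the 8 genes the fold change lay above 1.11, the level exceeded by 10% of all genes tested.

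**Figure D2:**
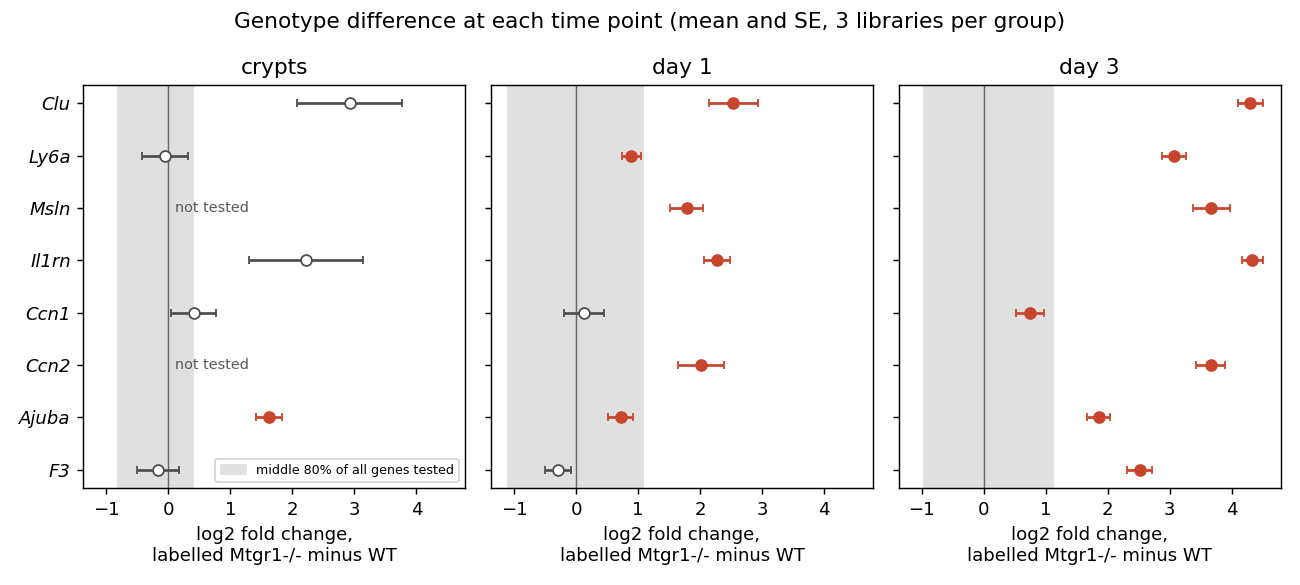
Log2 fold change (libraries labelled Mtgr1-/- minus WT, with standard error, 3 libraries per group) of the 8 genes at the 3 time points; filled red points passed the limma test, and the grey band holds the middle 80% of all genes tested. The number of filled points goes from 1 to 6 to 8, and at day 3 only Ccn1 lies within the band.

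Clu reached 30995, 20413 and 19317 normalized counts in the day 3 enteroids labelled Mtgr1-/-, against 1358, 916 and 1280 in WT. That is a ratio of means of 19.9 (log2 fold change 4.30 ± 0.21 (SE, n = 3 per group), limma adjusted p = 7.0e-06). Per exon length Clu was the most abundant of the 8, at 251 ± 82.0 CPM per kb (SD, n = 3), ahead of Msln at 99.0 ± 22.4, and the ranges of those 2 did not meet. In day 3 WT enteroids the same 2 genes led, at 14.4 ± 2.94 and 9.28 ± 3.42 CPM per kb, with ranges that overlapped.

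Il1rn had 276, 189 and 257 normalized counts in WT and 5759, 4402 and 4376 in enteroids labelled Mtgr1-/-. Its ratio of 20.2 was the highest of the 8 (log2 fold change 4.33 ± 0.17 (SE), limma adjusted p = 4.4e-06). Msln had 845, 395 and 802 in WT and 9216, 9782 and 6118 in the other genotype (ratio 12.3, log2 fold change 3.67 ± 0.30 (SE), limma adjusted p = 4.9e-05), while the mesothelial marker sum overlapped between the genotypes (4.32 to 5.84 CPM in WT, 2.07 to 4.96 CPM in those labelled Mtgr1-/-).

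Ly6a had 215, 139 and 165 normalized counts in WT and 1816, 1329 and 1243 in enteroids labelled Mtgr1-/- (ratio 8.46, log2 fold change 3.08 ± 0.19 (SE), limma adjusted p = 1.7e-05). No day 3 library held more than 18.2 normalized counts of Ly6c1 or 1.12 of Ly6c2. F3 had 518, 322 and 302 in WT and 2163, 2338 and 1882 in the other genotype (ratio 5.59, log2 fold change 2.52 ± 0.20 (SE), limma adjusted p = 4.3e-05). F3 had thus no called difference at day 1 and a called one at day 3.

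Ccn2 had 54.7, 32.1 and 49.4 normalized counts in WT and 693, 547 and 491 in enteroids labelled Mtgr1-/- (ratio 12.7, log2 fold change 3.66 ± 0.23 (SE), limma adjusted p = 1.6e-05). Ajuba had 313, 351 and 272 against 1513, 1010.1 and 935 (ratio 3.70, log2 fold change 1.86 ± 0.19 (SE), limma adjusted p = 0.00014). Ccn1 had 119, 173 and 115 against 292, 198 and 195 (ratio 1.68, log2 fold change 0.75 ± 0.22 (SE), limma adjusted p = 0.020). The Ccn1 call was the least firm of the 8: it was lost under scaling to library totals (0.55, adjusted p = 0.085), without WT library 1 (adjusted p = 0.0696) and without WT library 3 (adjusted p = 0.0718).

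Between day 1 and day 3 most of the 8 genes fell in WT and most rose in libraries labelled Mtgr1-/-. Clu rose and Il1rn fell in both genotypes. In WT, 6 of the 8 genes were lower at day 3 than at day 1 in 3 of 3 mice, on the CPM scale, and only Clu was higher in all 3. In libraries labelled Mtgr1-/-, 6 of the 8 were higher at day 3 in 3 of 3 mice and only Il1rn was lower in all 3. For comparison, 25% of 11846 genes were lower in every WT mouse and 28.1% higher in every mouse labelled Mtgr1-/-.

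The WT decline was steepest for F3, whose day 3 level was 0.193, 0.185 and 0.125 times the day 1 level in WT mice 1, 2 and 3. Il1rn followed at 0.202, 0.189 and 0.163 times, and Ly6a at 0.355, 0.286 and 0.281 times. In mice labelled Mtgr1-/- the same ratios were 1.28, 1.06 and 1.46 for F3, 0.913, 0.820 and 0.782 for Il1rn, and 2.19, 1.02 and 1.56 for Ly6a. For these 3 genes, as for Clu, Msln, Ccn2 and Ajuba below, no mouse of either genotype fell within the range of the other. The share of all genes apart in this way was not counted.

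Clu differed in kind: it stayed near its day 1 level in WT (1.14, 1.09 and 1.29 times) and stood at 4.37, 2.38 and 7.79 times in mice labelled Mtgr1-/-. Msln was at 0.567, 0.405 and 0.752 times in WT and 2.26, 1.91 and 2.59 times in the other genotype. Ccn2 was at 0.543, 0.555 and 0.446 times in WT and 1.59, 1.33 and 2.57 times in the other. Ajuba was at 0.372, 0.605 and 0.325 times in WT and 1.24, 0.762 and 1.06 times in the other. Ccn1 had overlapping ratios, 1.03, 2.36 and 0.828 in WT and 2.11, 1.75 and 2.54 in mice labelled Mtgr1-/-.

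**Figure D3:**
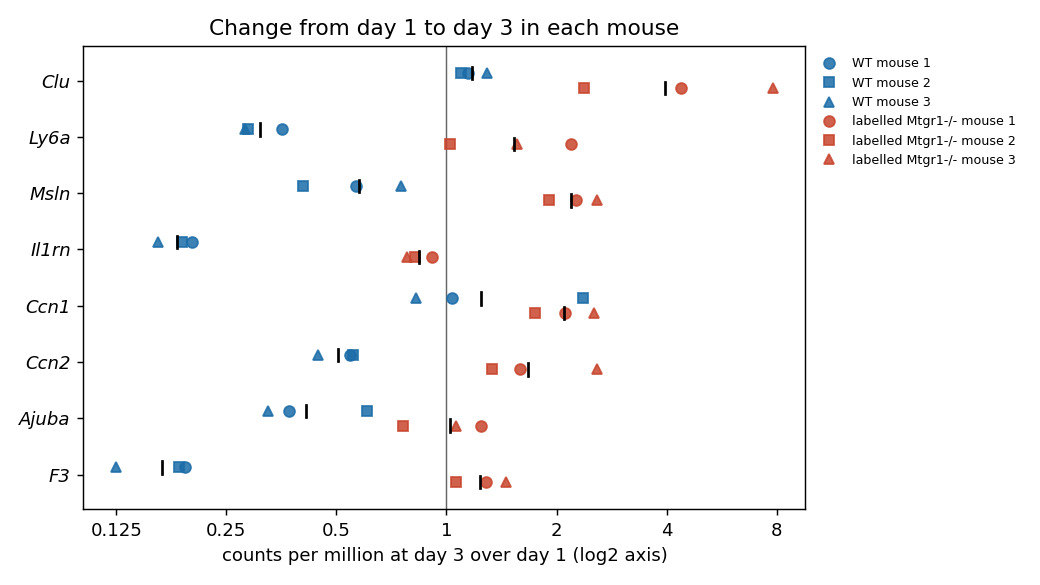
Ratio of day 3 to day 1 CPM (log2 axis) in each of the 3 WT (blue) and 3 labelled Mtgr1-/- (red) mice; the black bar is the ratio of the group means. The points of Ccn1 overlap between the genotypes, while those of F3 reach at most 0.193 in WT and at least 1.06 in the other genotype.

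The change of the genotype difference was tested directly, by limma over all 18 libraries with mouse as a random effect; a scale factor that a whole table shares cancels in it. From day 1 to day 3 all 7 genes tested had a positive estimate, and F3 was called (difference of log2 fold changes 2.81 ± 0.39 (SE), adjusted p = 0.018). Only 4 of 12937 genes were called in that contrast, 0.0232% higher and 0.00773% lower, and F3 ranked 2 among them by p, after the potassium channel gene Kcnk6. Ly6a ranked 7 and just missed (2.19 ± 0.40 (SE), adjusted p = 0.062). The F3 call was lost whenever a mouse other than mouse 2 labelled Mtgr1-/- was left out, with adjusted p up to 0.21, while the estimate stayed between 2.62 and 2.93 under every setting tried.

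Fitting the 12 enteroid libraries alone, a choice made after seeing the data, allowed Ccn2 to be tested. There F3 (adjusted p = 0.0051), Ly6a (adjusted p = 0.0077) and Il1rn (2.06 ± 0.31 (SE), adjusted p = 0.020) were called by limma, 3 of the 8, where 0.409% of 12705 genes were called higher and 0.0630% lower. The other 5 had positive estimates from 0.61 (Ccn1) to 1.89 (Msln) and did not pass, Ccn2 at 1.64 ± 0.50 (SE, adjusted p = 0.23).

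Against crypts, the genotype difference at day 3 was called larger for 3 of 7 genes: Ly6a (3.14 ± 0.40 (SE), adjusted p = 0.00026), F3 (2.69 ± 0.39 (SE), adjusted p = 0.00052) and Msln (2.03 ± 0.54 (SE), adjusted p = 0.013), by limma, where 16.3% of genes were called higher and 14.4% lower. The Msln value depended on the pseudocount, since crypts held so few of its reads: it was 0.72 (adjusted p = 0.64) with 0.1 and 3.15 with 8. Against crypts, the difference at day 1 was called only for Ajuba, 1 of 7, and it was smaller at day 1 (-0.90 ± 0.28 (SE), limma adjusted p = 0.021), where 19.4% of genes were called higher and 20.0% lower. Leaving out WT mouse 1 or 3 or mouse 3 labelled Mtgr1-/- ended the Ajuba call, with adjusted p up to 0.13.

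Other listed targets of YAP were mostly called higher at day 3. Of 19 further genes of a 22-gene YAP/TAZ signature, which contains Ccn1, Ccn2 and F3 as well, 13 were tested at day 3 and 12 of them rose in enteroids labelled Mtgr1-/-, with none falling and a median log2 fold change of 1.34, where 29.9% of all genes were called higher. The largest were Nt5e, an ecto-nucleotidase (4.76 ± 0.34 (SE)), Myof, a membrane repair protein (2.89 ± 0.24), and Ankrd1, a muscle and stress ankyrin-repeat protein (2.14 ± 0.40). At day 1, 9 of 12 rose, beside 30.0% of all genes, led by Nt5e (2.66 ± 0.86), Ptpn14 (1.54 ± 0.50) and Asap1 (1.53 ± 0.33), and Arhgef17 fell by 2.23 on the log2 scale. In crypts none of 12 rose and Myof fell by 2.43. Myof thus had opposite signs before and after plating.

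The components of the Hippo pathway itself went both ways. Of 25 tested at day 1, 7 rose and 7 fell, shares close to the 30.0% and 28.9% of all genes called, and of 25 tested at day 3, 10 rose and 4 fell, beside 29.9% and 29.1% of all genes. The medians were 0.16 and 0.12. The transcription factor Tead4 (3.01 ± 0.22 (SE)) and the angiomotins' family member Amotl1 (3.02 ± 0.21) rose most at day 3, followed by the kinase Lats2 (1.73 ± 0.16), itself a YAP target. At day 1 the largest were Ptpn14 (1.54), Lats2 (1.29) and Amotl1 (1.21). Wwtr1, which encodes TAZ, fell at each time point, by 2.83 in crypts, 2.16 at day 1 and 0.93 at day 3 on the log2 scale. Vgll4, a TEAD competitor of YAP, fell by 1.22 at day 1 and 1.34 at day 3, and Amot and Frmd6 fell by 0.92 and 0.98 at day 1. At day 3 Amot fell by 0.72. Yap1 fell by 0.42 at day 1 and was not called at day 3. In crypts Tead2 (3.25 ± 0.31) and the upstream regulator Nf2 (0.65 ± 0.09) rose.

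Of the regenerative and fetal-like epithelial genes, 21 of 23 tested rose at day 3 and none fell, with a median log2 fold change of 2.07, beside 29.9% of all genes called higher. The largest were Ly6d (3.80 ± 0.23 (SE)), the annexin Anxa1 (3.75 ± 0.23) and osteopontin, Spp1 (3.43 ± 0.69). Spp1 had a mean of 1.59 normalized counts in WT at day 3, so its value depends on the pseudocount. At day 1, 11 of 21 rose, beside 30.0% of all genes, led by Anxa5 (2.02 ± 0.24), Anxa1 (1.4 ± 0.27) and S100a6 (1.31 ± 0.23), while Ptgs2, the inducible prostaglandin synthase, fell by 2.23 and Cd44 by 1.12 on the log2 scale. In crypts none of 17 rose and Anxa3 fell by 1.64. In the enterocyte list 15 of 16 genes rose at day 1 and 14 of 16 at day 3, with summed levels of 18089 to 29426 CPM at day 3 in enteroids labelled Mtgr1-/- and 9643 to 10933 CPM in WT. The exception at day 1 was Sis, the brush border sucrase-isomaltase, which fell by 2.59 on the log2 scale, and at day 3 its value was -1.12 and Slc2a5, a fructose transporter, stood at 0.26, neither called. In crypts none of the 16 rose, and Sis and Slc2a5 fell by 4.51 and 1.88. These genes were chosen after their values were seen, and all the lists were chosen with earlier results of these data known. The part of these cell type shifts in the results for the 8 genes was not tested.

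Each gene's own family was looked at next. Among 11 genes of the IL-1 family, 6 were tested, and 5 rose at day 1 and 4 at day 3, beside 30.0% and 29.9% of all genes, led by Il1a at 4.85 ± 0.78 and 5.08 ± 0.47 (SE), the agonist that the antagonist Il1rn opposes, and by the alarmin Il33 at 1.66 ± 0.33 and 3.24 ± 0.25. Il1rap, the receptor's shared chain, came next at 0.65 ± 0.15 and 0.73 ± 0.12. Il18 fell by 0.97 in crypts. Il1a was near 0 in WT, with mean normalized counts of 1.68 at day 1 and 0.323 at day 3 against 54.8 and 41.6 in enteroids labelled Mtgr1-/-, so its fitted values depend on the pseudocount. The Ly6 family had 4 of 8 tested genes higher at day 1 and 6 of 8 at day 3, beside the same shares of all genes. Ly6m (3.33 and 5.20), Ly6g (2.91 and 4.44) and at day 3 Ly6d led. Mean normalized counts of Ly6g in WT were 4.33 at day 1 and 0.942 at day 3. Its fitted values therefore depend on the pseudocount too. Lypd8 came next at day 1 (1.64), and none of 6 was called in crypts. Ccn3, Ccn4, Ccn5 and Ccn6 were too low to test at any time point, so that Ccn1 and Ccn2 were the only family members tested.

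Around tissue factor, 4 of 8 tested genes rose at day 1 and 6 of 8 at day 3, beside 30.0% and 29.9% of all genes, and none fell. The thrombin receptor F2r (3.67 ± 0.44 (SE)), the protein C receptor Procr (3.56 ± 0.37) and the urokinase gene Plau (3.27 ± 0.36) led at day 3. At day 1 Plau (2.85 ± 0.37), F10 (2.75 ± 0.59) and Procr (1.56 ± 0.52) led. In crypts Tfpi, the inhibitor of the tissue factor complex, rose (1.84 ± 0.31), in 1 of 5 tested. No gene named from these lists changed sign when libraries were scaled to their totals. Under that scaling the median log2 fold change of all genes was -0.33 at day 1 and -0.20 at day 3, and turned the split of calls from 3776 higher and 3637 lower to 2206 and 5588 at day 1, and from 3826 and 3719 to 2755 and 5081 at day 3.

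**Figure D4:**
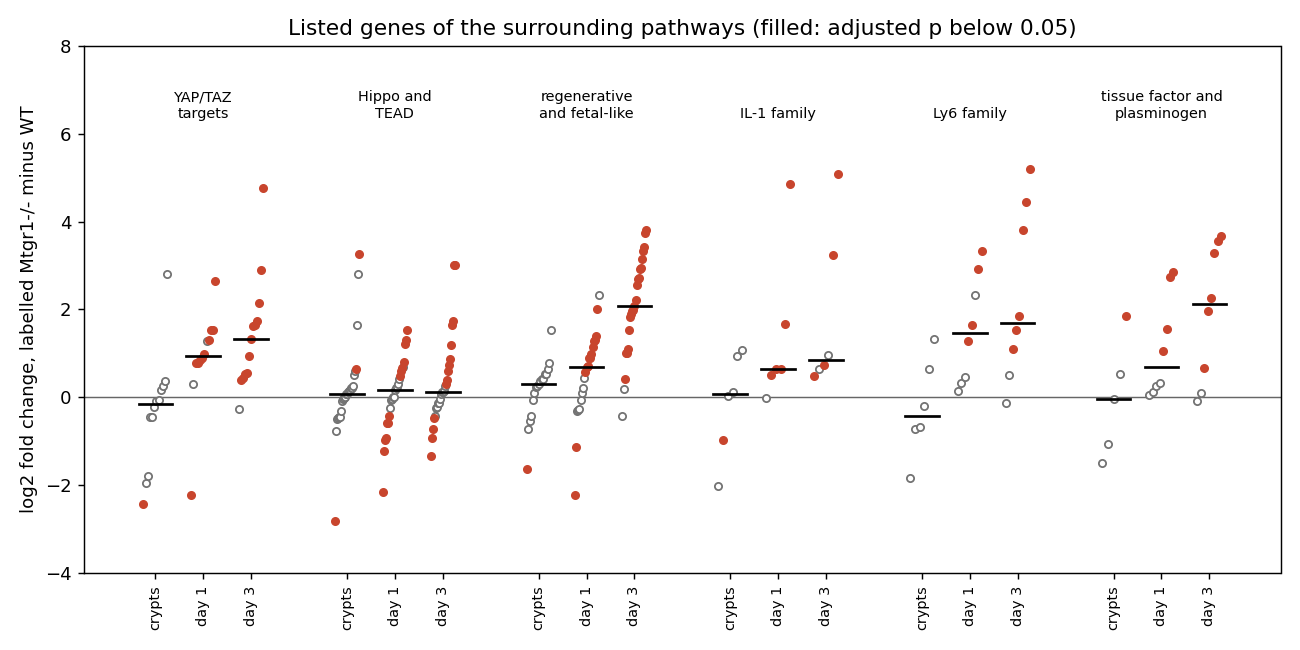
Log2 fold change (libraries labelled Mtgr1-/- minus WT) of every tested gene of 6 lists in crypts, at day 1 and at day 3; filled red points passed the limma test and the black bar is the median. The day 3 medians are 1.34 for YAP/TAZ targets, 0.12 for Hippo components, 2.07 for regenerative genes, 0.84 for the IL-1 family, 1.69 for the Ly6 family and 2.12 for the tissue factor list.

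Across the 18 libraries, the genes whose log2(CPM + 1) followed each of the 7 genes with crypt values most closely, out of 11846 with a mean of at least 1 CPM, were looked up by Pearson's r. The 18 points fall into 6 groups and share mice, so that r mainly follows the group means. F3 was closest to Plaur (0.990), the urokinase receptor, Sprr1a (0.989) and Plat (0.986), of which Plaur and Plat are in its pathway list. Msln was closest to Ano1 (0.991), Gclc (0.988) and Anxa1 (0.987), and Clu to Tnfrsf10b (0.976), Cavin1 (0.974) and Msln itself (0.970). Ly6a was closest to Tead4 (0.975), Gldc (0.967) and Dse (0.965). Il1rn was closest to Bok (0.975), Bmp8b (0.975) and Slc4a11 (0.973), and Ajuba to Paqr8 (0.980), Prrg4 (0.979) and S100a11 (0.976). Ccn1 was closest to Arhgap6 (0.953), 4930461G14Rik (0.945) and Ripor1 (0.945). Among the 7 themselves r ran from 0.731 (Ccn1 with Ly6a) to 0.970 (Clu with Msln).

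Per exon length the order of the 8 also changed with time. In crypts Ly6a led at both genotypes, at 4.06 ± 0.90 CPM per kb in WT and 4.16 ± 1.63 in those labelled Mtgr1-/- (SD, n = 3), followed by F3 at 1.64 ± 0.12 and 1.61 ± 0.88. At day 1 F3 led in WT (37.7 ± 8.37), clear of Ly6a (19.4 ± 2.35), whereas Clu led in enteroids labelled Mtgr1-/- (63.5 ± 32.1) with a range that overlapped those of Msln, Il1rn, Ly6a and F3. Ccn1 and Ccn2 were the lowest of the 8 in enteroids of both genotypes at day 1, between 1.31 and 4.4 CPM per kb on average. At day 3 Ccn2 was the lowest in WT (0.662 ± 0.18) and Ccn1 the lowest in enteroids labelled Mtgr1-/- (4.15 ± 1.23).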

How the data were processed

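Duodenal crypts and day 1 and day 3 enteroids of 3 WT and 3 Mtgr1-/- mice were profiled by stranded poly(A) RNA sequencing. Per the labels, reads were processed by the authors with fastp 0.20.0, Salmon 1.3.0 and DESeq2 1.26.0. Each deposited library column is a signal: gene counts divided by 1 DESeq2 size factor per library, within a separate table for each time point. The deposited log2 fold changes, test score and p-value columns hold the authors' own comparisons and were not used.

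All values of every library were whole multiples of 1 step (100%, tolerance 0.001), and division by it recovered the reads, which edgeR 4.0.16 and DESeq2 1.42.0 took as alternatives. The main test was limma 3.58.1 (R 4.3.3) on log2(normalized count + 1), for genes with a mean of at least 10, in 3 against 3 libraries, with Benjamini-Hochberg adjustment. Since the study's methods state a count model, this choice follows the unit of the files. Changes between time points were fitted over 18 libraries; mouse entered as a random effect, with an estimated correlation of 0.00576 within a mouse. The scripts were tested on simulated data.

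The 8 genes and the lists were chosen with earlier results of these data known. All 8 genes are given with every library of the tables that hold them (Ccn2 at day 1 and day 3); of each pathway list, the 3 genes with the largest called change in each direction at each time point are named, and for each of the 7 genes with crypt values the 3 closest by correlation. A listed symbol with several identifiers (Lats2, 2) was counted once, by its row with the higher mean. The YAP, Hippo, regenerative, CCN, IL-1, Ly6 and tissue factor lists and markers of epithelial, enterocyte, stem, fibroblast, endothelial, mesothelial, immune and red blood cells were counted. Some listed genes are not reported here, and list values were computed without them. The fibroblast, endothelial and red blood cell lists summed to at most 21.4, 8.61 and 4.85 CPM in any library. All 18838 gene identifiers matched GENCODE M21, which gave positions and exon lengths.

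Same-numbered WT and Mtgr1-/- libraries deviated together at day 1 (correlations 0.116, 0.231 and 0.216), in crypts for numbers 2 and 3 alone (0.0764, 0.274 and 0.346) and not at day 3 (-0.00666, -0.00226 and -0.0156). The labels give no reason for a pairing. The mice were littermates, but the sample titles give a mouse number and no litter. P-values measure the spread between mice. With 3 against 3 an exact permutation test cannot go below 0.1 and was not used. Intervals for counts cover counting error only.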

Additional observations from a re-analysis of the deposited data

Results flagged for a closer look

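Results are listed here because the genotype difference (libraries labelled Mtgr1-/- minus WT) changed between time points by a direct limma test, adjusted over all genes. Against crypts, the difference of Ly6a grew by day 3 (3.14 on the log2 scale, adjusted p = 0.00026), and so did those of F3 (2.69, adjusted p = 0.00052) and Msln (2.03, adjusted p = 0.013), the last on 0 to 6 reads per crypt library. Against crypts, that of Ajuba was smaller at day 1 (-0.90, adjusted p = 0.021), where its level in WT was 19.2 times, and in libraries labelled Mtgr1-/- 7.94 times, the crypt mean. The Ajuba call was lost without WT mouse 1 or 3 or mouse 3 labelled Mtgr1-/- (limma adjusted p up to 0.13).

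From day 1 to day 3 the difference of F3 grew (2.81, adjusted p = 0.018 over 18 libraries and 0.0051 over the 12 enteroid libraries), turning from a lower mean in enteroids labelled Mtgr1-/- to a higher one. The F3 call over 18 libraries was lost when any mouse but mouse 2 labelled Mtgr1-/- was left out (limma adjusted p up to 0.21). In the 12 libraries alone, a fit chosen after seeing the data, Ly6a (2.19, adjusted p = 0.0077) and Il1rn (2.06, adjusted p = 0.020) were called as well. Over 18 libraries neither Ly6a nor Il1rn was called (limma adjusted p = 0.062 and 0.58). All 3 genes were lower at day 3 than at day 1 in 3 of 3 WT mice. Groups of 3 libraries were not tested for outliers.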

How the results depend on the processing

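The 8 genes gave 480 comparisons with another setting, of which 447 kept direction and side of the threshold, 3 lost the call, 16 gained one and 14 turned sign; with a library or mouse left out these numbers were 229, 12, 5 and 12 of 258. Counts of called genes among the 8 moved by over 1.5 times in the following cases, and the cause was not tested. In crypts 2 were called in place of 1 with library weights (Ajuba and Il1rn) and by DESeq2 (Ajuba and Clu), and 0 to 2 with a library left out. With a pseudocount of 8, the change of the genotype difference was called for 2 genes for day 1 minus crypts and for 5 for day 3 minus crypts. For day 3 minus day 1, 2 were called with a pseudocount of 8 or with library totals (Ly6a and F3), 5 with library weights, 3 in the 12 enteroid libraries alone, which were chosen after seeing the data, and 0 to 3 with a mouse left out. For day 1 minus crypts, 0 to 1 were called with a mouse left out.

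None of the values that turned sign was called in the reported fit. In crypts Ly6a turned to 0.38 with library weights, 0.0064 by edgeR and 0.010 by DESeq2, and ran from -0.26 to 0.35 with a library left out, and F3 ran from -0.55 to 0.034. At day 1 Ccn1 turned to -0.18 with library totals and ran from -0.16 to 0.32. For day 1 minus crypts, Clu turned to 0.33 with a pseudocount of 8 and 0.44 with library weights, Msln to -1.16 with a pseudocount of 0.1 and -0.21 with library totals, and Il1rn to -0.019, -0.30 and -0.78 with a pseudocount of 0.1, library totals and library weights. With library weights Ccn1 turned to 0.15 and F3 to 0.00013, and Ajuba to -0.029 for day 3 minus crypts. With a mouse left out Clu ran from -0.94 to 0.46, Msln from -0.34 to 0.44, Il1rn from -0.94 to 0.81 and F3 from -0.40 to 0.18.

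With mouse number as a replicate block within a time point, 1, 6 and 8 of the genes were called, as without it. With mouse as a fixed block 3 were called for day 3 minus day 1 (Msln, Ly6a and F3), and the other changes kept their counts of 1 and 3.

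Over all genes, 614 were called in crypts, 2100 with library weights, 1379 by DESeq2 and 176 to 608 with a library left out. For day 3 minus day 1 the count was 4, against 53 with a pseudocount of 8, 23 with library totals, 1655 with library weights, 42 with a fixed mouse block, 60 in the enteroid libraries alone, and 0 to 891 with a mouse left out, the last without mouse 2 labelled Mtgr1-/-. For day 3 minus crypts it was 3965, and 1745 to 3819 with a mouse left out; for day 1 minus crypts it was 5096, and 3367 to 5596. Counting depth limits Msln in every crypt library and Clu in WT crypts. Il1rn was also low in WT crypt libraries 1 and 2 (9 and 12 reads). Ccn1 was low in all crypt libraries (15 to 34 reads).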
